A study of Quercus robur with 12 samples.

Results

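miR162a, miR168a and miR403a are the known miRNAs of the deposited oak table whose families target mRNAs of the small RNA machinery itself. They were chosen by name, qrb-miR162a, qrb-miR168a and qrb-miR403a (the prefix is left out below), and make up 3 of the 75 miRNAs counted. The 12 libraries held small RNAs of growing root tips (the meristem) of wild-type pedunculate oak (Quercus robur) seedlings, taken from the taproot (TR) or from its lateral roots (LR). Control seedlings (CT) stayed fully watered, and drought-stressed seedlings (DS) spent 4 weeks at 25% of the control soil moisture, both after 8 weeks of acclimatization. Each of the 4 groups (TR-CT, TR-DS, LR-CT and LR-DS) had 3 libraries, and each library came from a pool of root tips. Seedlings had been raised in containers or sown as acorns in rhizotrons, and the labels do not give this per library, so cultivation and watering cannot be told apart here. The labels call the 3 libraries of a group biological replicates without saying that they came from separate plants, so p-values measure the spread between these pools.

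In plants, DICER-LIKE 1 (DCL1) cuts miRNAs out of their hairpin precursors, and ARGONAUTE (AGO) proteins carry the finished miRNA to its target mRNA. The machinery is itself under miRNA control: in Arabidopsis, miR162 targets the DCL1 mRNA, miR168 targets the mRNA of AGO1, the main carrier of miRNAs, and miR403 targets the mRNA of AGO2, which is known for its part in antiviral defence. The miR168 and AGO1 pair is the textbook feedback loop of this system, since AGO1 loaded with miR168 acts on its own mRNA. The levels of the DCL1, AGO1 and AGO2 mRNAs were not analysed here.

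The sequence of oak miR162 is shown because this miRNA varied most of the 3, together with the sites that the study's degradome table, a survey of cut mRNA ends, pairs with it. That table names it without a letter, so its identity with miR162a rests on the family name. Bases 2 to 8 of the miRNA, the seed, are in capitals, and all sequences run 5′ to 3′.
miR162: uCGAUAAAccucugcauccag
Qrob_T0488670.2 site: cuggaugcaacuggagguuuaugga
Qrob_T0632290.2 site: cuggugcgggugguuuaucga
Aligned to the 21 nt miRNA, the site in Qrob_T0488670.2 had 20 base pairs, 1 mismatch at miRNA base 3, within the seed, and a run of 4 bases with no partner. The site in Qrob_T0632290.2 had 18 base pairs, 2 G:U wobbles, and 1 base without a partner on either strand. The gene models of these transcripts carry no name in the tables used here. Mature sequences of miR168a and miR403a were not used here.

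The libraries held between 160039 and 1267473 counts. A single sequence of 16 nt took 34.1% to 89.1% of them, which left 26087 to 557180 counts for all other miRNAs. LR-DS replicate 3 was the shallowest library, and 3 counts, the smallest amount regarded as detectable, stood for 18.7 CPM (counts relative to the library total) there and for 2.37 CPM in the deepest library. In lateral roots the share of the 16 nt sequence moved with drought, from 34.1% to 60.6% of counts in LR-CT to 83.7% to 86.2% in LR-DS. Why its share moved was not tested. The drought comparisons of lateral roots are given below with this sequence in the library size and without it. Ratios between the 3 miRNAs within a library, whose values do not depend on it, follow later.

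Levels are given as log2 CPM, scaled with TMM factors over the 12 libraries. Reads were counted per mature miRNA, so a level needs no correction for transcript length, but miRNAs can enter a library with unequal efficiency, and a difference between 2 miRNAs is one of counts.

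miR162a, whose family targets DCL1 in Arabidopsis, was the most abundant of the 3 in all libraries but those of LR-CT, and it was the most variable. Replicates 1 to 3 of LR-CT gave 1806, 2968 and 3243 counts and those of LR-DS 4361, 4972 and 355, against 1685, 1556 and 10361 for TR-CT and 5563, 948 and 14430 for TR-DS. As scaled log2 CPM, LR-CT had 10.35, 10.90 and 10.81 and LR-DS had 12.85, 12.74 and 11.21, while TR-CT had 11.26, 11.09 and 14.91 and TR-DS had 14.36, 11.10 and 14.00. Taproot libraries fell into a high and a low set that crossed the labels: TR-CT replicate 3 lay with TR-DS replicates 1 and 3, and TR-DS replicate 2 lay with TR-CT replicates 1 and 2. No label accounts for this crossing, and the main tests of miR162a that rest on those libraries are given with and without them. Correlations are given for all 12 libraries only. The mean level was highest in TR-DS (13.15 ± 1.79, SD, n = 3), followed by TR-CT (12.42 ± 2.16), LR-DS (12.27 ± 0.92) and LR-CT (10.68 ± 0.30). TR-DS, TR-CT and LR-DS lay within the SD of one another, and on this scale LR-CT lay below all libraries of the other 3 groups. Among the 51 known miRNAs of the table, miR162a ranked 4 to 8 in the libraries of TR-CT, TR-DS and LR-DS, and 10 or 11 in LR-CT.

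miR168a, whose family targets AGO1 in Arabidopsis, varied less. LR-CT replicates gave 1829, 3391 and 3566 counts and LR-DS replicates 587, 766 and 97, against 1090, 963 and 1048 for TR-CT and 528, 308 and 1066 for TR-DS. Its scaled log2 CPM was 10.37, 11.09 and 10.94 for LR-CT, 9.96, 10.05 and 9.34 for LR-DS, 10.63, 10.40 and 11.61 for TR-CT, and 10.97, 9.48 and 10.24 for TR-DS. Taproot libraries under drought overlapped with their controls, whereas on this scale every LR-DS library lay below every LR-CT library. By group mean the order was TR-CT (10.88 ± 0.64, SD, n = 3), LR-CT (10.80 ± 0.38), TR-DS (10.23 ± 0.74) and LR-DS (9.78 ± 0.38). Neighbours in this order differed by less than the larger of their SDs. Its rank among the known miRNAs was 9 to 12 in the control libraries and 13 to 17 in the drought libraries, without overlap. A rank depends on the other miRNAs too. The share of known miRNAs whose ranks separate in this way was not counted.

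miR403a, whose family targets AGO2 in Arabidopsis, was the least abundant of the 3 by group mean in both control groups. LR-CT replicates gave 1145, 1366 and 2085 counts and LR-DS replicates 505, 407 and 258, against 517, 547 and 595 for TR-CT and 580, 453 and 721 for TR-DS. Scaled, these were 9.69, 9.78 and 10.17 log2 CPM for LR-CT, 9.74, 9.14 and 10.75 for LR-DS, 9.56, 9.59 and 10.79 for TR-CT, and 11.10, 10.04 and 9.68 for TR-DS. All 4 groups overlapped, with means of 10.27 ± 0.74 (SD, n = 3) in TR-DS, 9.98 ± 0.70 in TR-CT, 9.88 ± 0.25 in LR-CT and 9.88 ± 0.81 in LR-DS, and no neighbours in that order differed beyond their spread. The highest LR-DS value came from replicate 3, the library with the fewest counts.

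**Figure D1:**
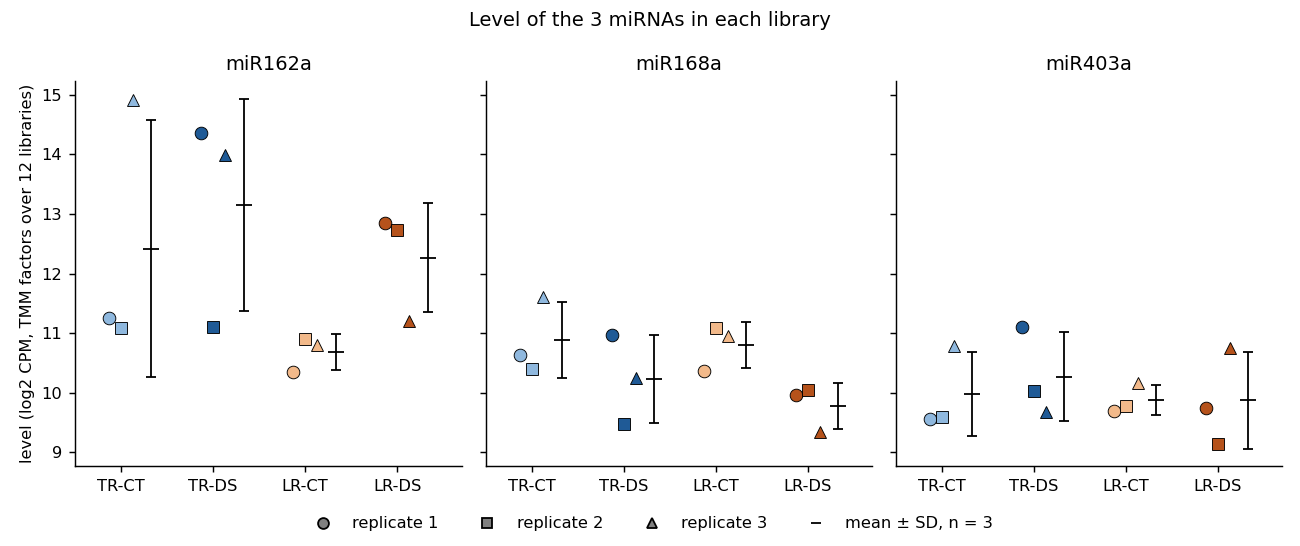
Level of miR162a, miR168a and miR403a in the 12 libraries (vertical axis, log2 CPM with TMM factors), by group (horizontal axis), with 1 symbol per replicate number and bars for the mean ± SD of 3 libraries. The miR162a panel shows TR-CT replicate 3 at 14.91 and TR-DS replicate 2 at 11.10, each among the libraries of the other watering condition, and the miR168a panel shows LR-DS below LR-CT.

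Taken as a share of the counts without the 16 nt sequence, the same contrast between the 3 miRNAs appeared without any scaling factor. miR168a held 0.372% to 0.697% of those counts over the 12 libraries, a 1.88-fold range. On this measure LR-DS replicate 2 (0.635%) lay above LR-CT replicates 1 (0.608%) and 2 (0.609%), so the lateral root groups of miR168a overlapped. The share of miR403a ran from 0.245% to 0.989% (4.03-fold), and that of miR162a from 0.533% to 6.46% (12.1-fold). Together the 3 made up 1.92% to 2.57% of the counts of known miRNAs in LR-CT and 5.52% to 6.34% in LR-DS. In taproots this was 2.41% to 7.97% in TR-CT and 5.22% to 7.67% in TR-DS, with overlap. Of the 3 in lateral roots, only miR162a had a share without the 16 nt sequence that rose without overlap (0.533% to 0.600% in LR-CT, 1.36% to 4.12% in LR-DS). How often other sets of miRNAs separate the groups in this way was not counted.

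The first comparison asks how drought altered the 3 miRNAs in lateral roots. miR162a rose, with a log2FC of 1.73 (SE 0.48), a 3.32-fold higher level in LR-DS than in LR-CT. It passed the quasi-likelihood test of edgeR with Benjamini-Hochberg adjustment over all 75 miRNAs (FDR = 0.0161), and with TMM factors no LR-DS library overlapped with LR-CT. In such bulk root tips, a change in the number of cells that hold a miRNA and a change in its amount per cell cannot be told apart. miR168a had a log2FC of -1.02 (SE 0.44) and did not pass that test (FDR = 0.0855), although the groups did not overlap. For miR403a the log2FC was 0.13 (SE 0.49, FDR = 0.869 in the same edgeR test), and the groups overlapped. Thus 1 of the 3 was called, in a comparison where 32% of all miRNAs were called and 9.33% were called higher. Groups did not overlap for 46.7% of the table (14.7% higher and 32% lower in LR-DS), so 2 of 3 without overlap is not far from the background. The median log2FC of the 3 was 0.13, beside -0.29 for all miRNAs. The call of miR162a held without each library in turn (log2FC 1.54 to 2.38, FDR 0.00078 to 0.0466 in edgeR), and it was lost in a joint fit of all 12 libraries (FDR = 0.273). miR168a passed without LR-DS replicate 2 (FDR = 0.0485 in edgeR), and its log2FC was -0.52 without the shallow LR-DS replicate 3.

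The size and the call of the lateral root changes depended on how the libraries were scaled. Without any scaling factor, so that the 16 nt sequence sets the library size, the log2FC of miR162a was 0.52 (FDR = 0.357), that of miR168a fell to -2.19 (FDR = 0.00153) and that of miR403a was -0.95 (FDR = 0.157), all from edgeR's quasi-likelihood test. That setting shifted the median log2FC of all miRNAs by -1.16, and leaving the 16 nt sequence out of the library size shifted it by 0.64. In the latter case the log2FC was 2.39 for miR162a (FDR = 0.00639), -0.33 for miR168a (FDR = 0.469) and 0.78 for miR403a (FDR = 0.223) in the same edgeR test. miR162a stayed above 0 and miR168a below 0 under all 4 scalings, whereas miR403a changed sign.

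**Figure D2:**
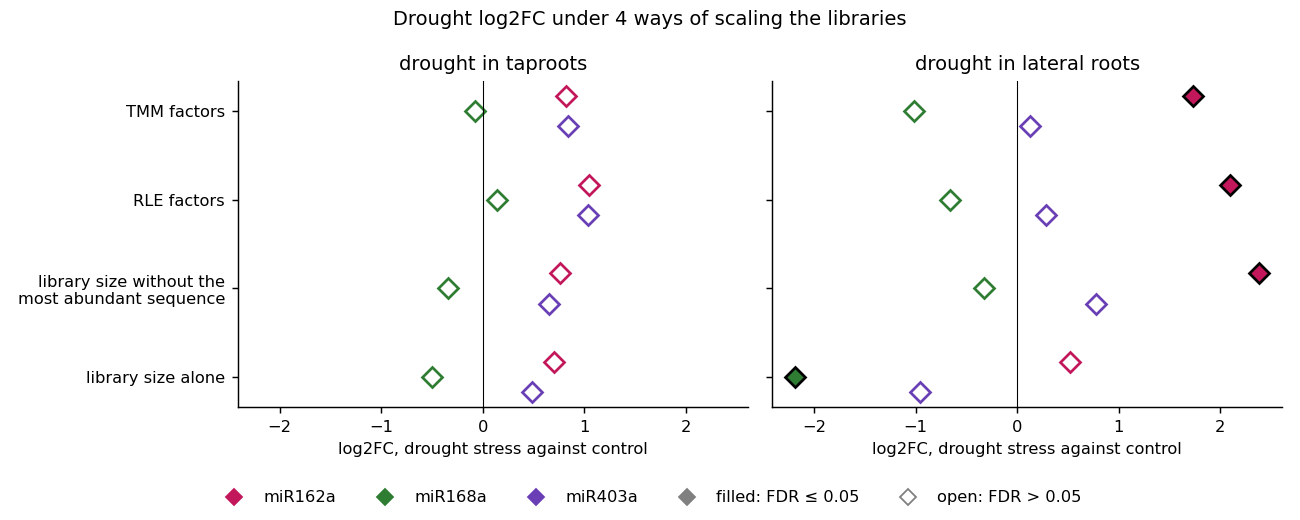
log2FC of drought stress against control (horizontal axis) in taproots (left) and lateral roots (right) under 4 ways of scaling the libraries (rows), with filled symbols for an FDR of at most 0.05 in edgeR. In lateral roots miR162a runs from 0.52 with library size alone to 2.39 without the most abundant sequence, and miR168a from -2.19 to -0.33.

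In taproots the drought comparison gave no call for any of the 3. miR162a had a log2FC of 0.82 (SE 1.13), miR168a of -0.076 (SE 0.70) and miR403a of 0.84 (SE 0.73), each with FDR = 0.997 in edgeR's test. All 3 overlapped between TR-CT and TR-DS. Of the 75 miRNAs tested, 0% were called and 4% did not overlap (1.33% higher and 2.67% lower in TR-DS). edgeR found 3 miRNAs at an unadjusted p of at most 0.05, and DESeq2 called 1. The miR162a value moved with single libraries, crossed or not: the log2FC was 2.85 (FDR = 0.249 in edgeR) without TR-CT replicate 3 and 1.30 (FDR = 0.620) without TR-DS replicate 2, and between 0.19 and 0.52 without any other 1 library. That of miR403a was 0.085 without TR-CT replicate 1, 0.37 without TR-DS replicate 1, and at most 1.17 without any other 1. The median log2FC of the 3 was 0.82, beside 0.019 for all miRNAs, and the sign of miR168a turned with RLE factors (0.14).

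The direct test of whether drought acted differently in the root types, an interaction over all 12 libraries, passed the threshold for none of the 3. The lateral root effect minus the taproot effect was 1.57 on the log2 scale for miR162a (SE 1.38, FDR = 0.824), -0.39 for miR168a (SE 0.85, FDR = 0.958) and -0.17 for miR403a (SE 0.92, FDR = 0.986) in edgeR's quasi-likelihood test. These values come from 1 fit with TMM factors over the 12 libraries, so they are not differences of the effects given above. In that joint fit the drought log2FC of miR162a was 1.73 in lateral roots and 0.16 in taproots. With TMM factors within each root type the miR162a interaction was 0.91 (FDR = 0.966 in edgeR). The miR162a interaction of 1.57 became -0.78 without TR-CT replicate 3 and 1.07 without TR-DS replicate 2. No miRNA of the table passed (0% of 75), 5 had an unadjusted p up to 0.05 and DESeq2 called 1. The median of the 3 was -0.17, beside 0.33 for all miRNAs. The call of miR162a in lateral roots and none in taproots thus does not show that the root types differed.

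Between root types under control conditions, with TMM factors, miR162a was lower in every lateral root library than in every taproot library, with a log2FC of -2.04 for LR-CT against TR-CT (SE 0.78). It did not pass the threshold (FDR = 0.430, edgeR's quasi-likelihood test), nor did any miRNA (0% of 75 called, 5 at an unadjusted p of at most 0.05, and 4 called by DESeq2). For miR162a itself DESeq2 gave a log2FC of -2.58 but no adjusted p, so it could not be called there. Groups did not overlap for 21.3% of miRNAs (16% higher and 5.33% lower in LR-CT). Without TR-CT replicate 3 the log2FC of miR162a was -0.56 (FDR = 0.126). With library size alone it was -1.21 (FDR = 0.606 in edgeR). On that scale TR-CT replicate 2 (1228 CPM) lay below all LR-CT libraries (2362 to 3510 CPM), so the groups overlapped. As a share of the counts without the 16 nt sequence, LR-CT (0.533% to 0.600%) lay below TR-CT (0.844% to 5.89%). miR168a (0.18, SE 0.33) and miR403a (0.17, SE 0.38) had an FDR of 0.856 each in the same edgeR test, and both overlapped between root types. The median of the 3 was 0.17, beside -0.20 for all miRNAs.

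Under drought the root types overlapped for all 3. Compared with TR-DS, LR-DS had log2FC values of -1.12 for miR162a (SE 0.90, FDR = 0.885), -0.28 for miR168a (SE 0.87, FDR = 0.907) and -0.019 for miR403a (SE 0.88, FDR = 0.984) in edgeR's quasi-likelihood test. Of the 74 miRNAs tested, 0% were called, 4 had an unadjusted p of at most 0.05, DESeq2 called 0, and 6.76% did not overlap. The median of the 3 was -0.28, beside 0.055 for all. Without TR-DS replicate 2 the value of miR162a was -1.64, and without TR-DS replicate 3 it was -0.76.

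**Figure D3:**
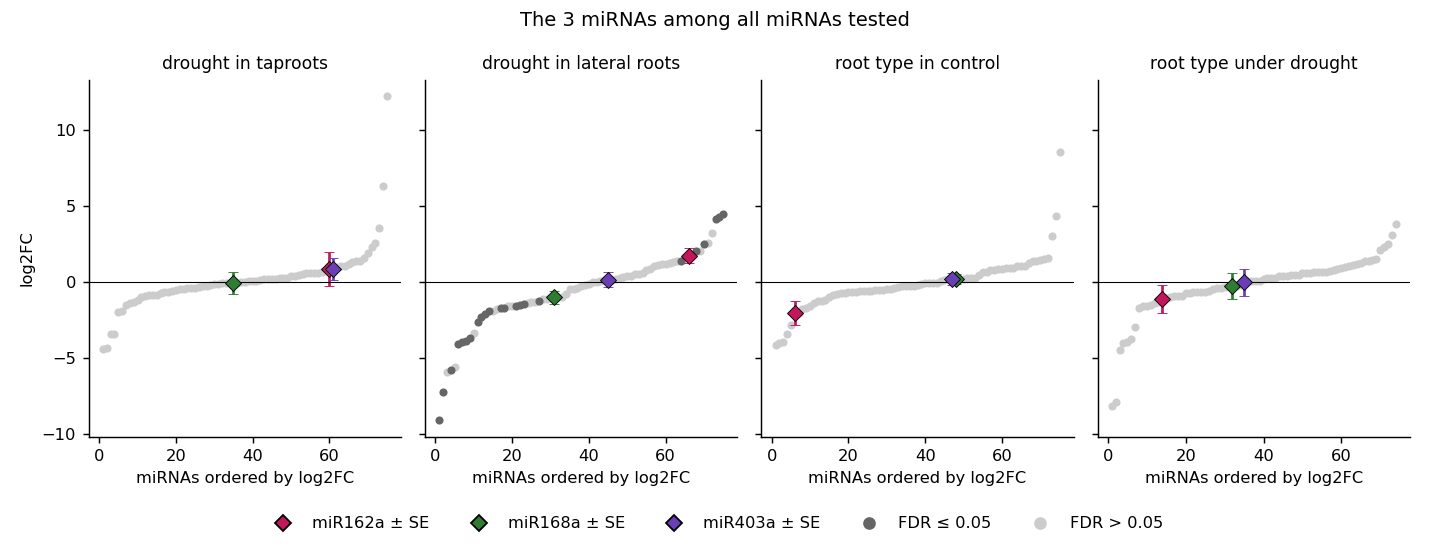
log2FC (vertical axis) of all miRNAs tested in each of the 4 comparisons of 2 groups, ordered by log2FC (horizontal axis), with dark points for an FDR of at most 0.05 and error bars of 1 SE on the 3 miRNAs. miR162a lies toward the upper end for drought in lateral roots (1.73) and toward the lower end for root type in control (-2.04), and miR403a lies near the middle in the lateral root panel.

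Ratios within a library need no scaling between libraries, and they set the miRNAs against each other directly. The ratio of miR162a to miR168a counts was 0.987, 0.875 and 0.909 for LR-CT and 7.43, 6.49 and 3.66 for LR-DS, and it was 1.55, 1.62 and 9.89 for TR-CT and 10.5, 3.08 and 13.5 for TR-DS. In well-watered lateral roots miR162a and miR168a were thus counted about equally, and in droughted lateral roots miR162a exceeded miR168a in all 3 libraries. The shallow LR-DS replicate 3, at 3.66 with a 95% Wilson interval of 2.92 to 4.58 (counting error only), lay above every LR-CT library. In taproots TR-CT replicate 3 lay within the range of TR-DS, and the other TR-CT libraries lay below all 3 TR-DS libraries.

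The mean log2 ratio of miR162a to miR168a was higher under drought by 2.60 in lateral roots (6.07-fold, no overlap) and by 1.38 in taproots (2.61-fold, overlap). How often ratios of other miRNA pairs separate the groups was not counted, so ratios without overlap, here and below, have no background beside them. In lateral roots 14.7% of single miRNAs were higher and 32% lower without overlap. With 3 libraries against 3, an exact permutation test cannot give a two-sided p below 0.1, and it gave 0.1 and 0.2. Over both root types, with conditions exchanged only within a root type, drought raised the ratio by 1.99 on the log2 scale, 3.98-fold (two-sided exact permutation test over 400 arrangements, p = 0.01, adjusted p = 0.045 over the 6 ratio tests). The ratio tests were chosen with earlier results of these data known, and the adjustment does not cover that choice. Leaving out any 1 of the 12 libraries kept the difference between 1.76 and 2.43 and the exact p between 0.01 and 0.04. Without TR-CT replicate 3 it was 2.43, and without TR-DS replicate 2 it was 2.32.

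The ratio of miR403a to miR168a was 0.626, 0.403 and 0.585 for LR-CT and 0.860, 0.531 and 2.66 for LR-DS, and it was 0.474, 0.568 and 0.568 for TR-CT and 1.10, 1.47 and 0.676 for TR-DS. Every control library had fewer miR403a than miR168a counts, and 3 of the 6 drought libraries had more. The taproot groups did not overlap, and here TR-CT replicate 3 lay with the other controls, unlike in its miR162a level. In lateral roots LR-DS replicate 2 lay within the control range.

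Under drought the mean log2 ratio of miR403a to miR168a was higher by 0.94 in taproots (1.92-fold) and by 1.01 in lateral roots (2.02-fold). The exact permutation test gave p = 0.1 and p = 0.3 for these. Over both root types the difference was 0.98, a 1.97-fold higher ratio (two-sided exact permutation test, p = 0.015, adjusted p = 0.045 over the 6 ratio tests). It lay between 0.65 and 1.23 when 1 library was left out, and its exact p was 0.065 without LR-CT replicate 2 (difference 0.88). The lower end, 0.65 with an exact p of 0.05, was reached without the shallow LR-DS replicate 3, whose ratio was the highest of all.

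The ratio of miR162a to miR403a was 1.58, 2.17 and 1.56 for LR-CT and 8.64, 12.2 and 1.38 for LR-DS, and it was 3.26, 2.84 and 17.4 for TR-CT and 9.59, 2.09 and 20.0 for TR-DS. miR162a had more counts than miR403a in all 12 libraries. Within taproots and within lateral roots, drought and control overlapped. Over both root types the log2 difference under drought was 1.01 (two-sided exact permutation test, p = 0.245, adjusted p = 0.294). It lay between 0.65 and 1.50 with 1 library left out (exact p 0.07 to 0.46). Without TR-CT replicate 3 it was 1.43, and without TR-DS replicate 2 it was 1.47.

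Root type gave no ratio past the threshold over both watering conditions. Lateral roots differed from taproots by -1.05 on the log2 scale in the ratio of miR162a to miR168a (two-sided exact permutation test, p = 0.09, adjusted p = 0.18). The corresponding difference was -1.06 for miR162a to miR403a (exact p = 0.195, adjusted p = 0.2925) and 0.016 for miR403a to miR168a (exact p = 0.96, adjusted p = 0.96). Under control conditions alone both ratios with miR162a were lower in every lateral root library than in every taproot library, by 1.66 and 1.64 on the log2 scale, with the smallest exact p that 3 against 3 allows, 0.1. Without TR-DS replicate 2, the difference over both conditions reached -1.37 for miR162a to miR168a (exact p = 0.005) and -1.52 for miR162a to miR403a (exact p = 0.05). Without TR-CT replicate 3 these were -0.61 (exact p = 0.135) and -0.65 (exact p = 0.355).

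**Figure D4:**
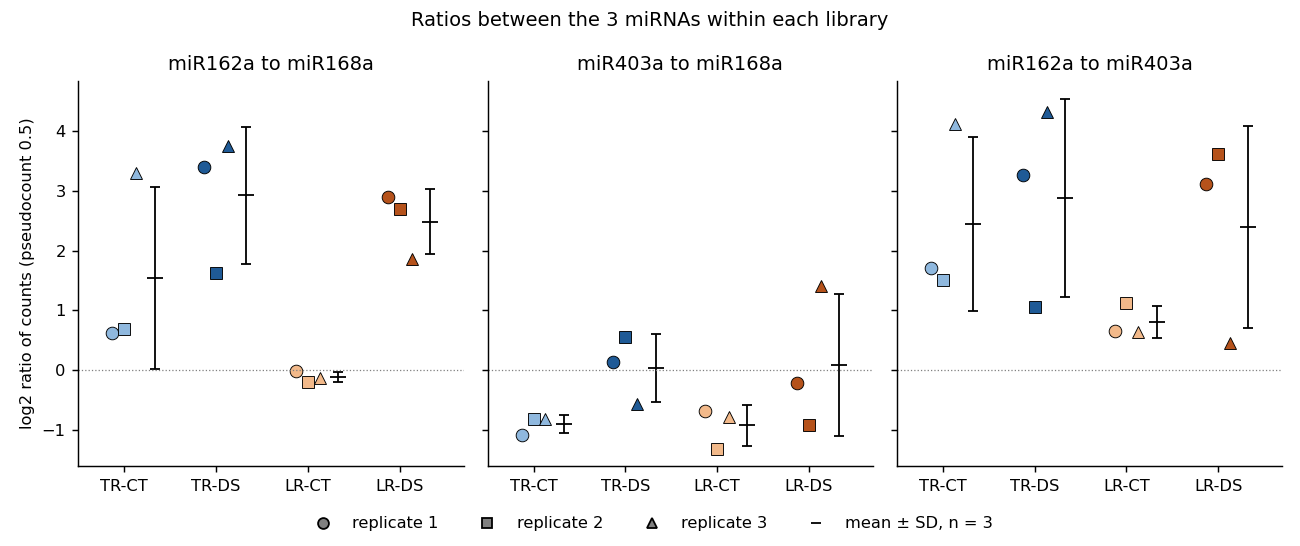
log2 ratios between the counts of the 3 miRNAs (vertical axis, pseudocount 0.5) in each library, by group (horizontal axis), with 1 symbol per replicate number and bars for the mean ± SD of 3 libraries. The ratio of miR162a to miR168a is near 0 in all LR-CT libraries and above it in all LR-DS libraries, and the ratio of miR403a to miR168a is below 0 in all 6 control libraries.

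Besides these 3, the table names 2 further miRNAs of a small RNA pathway, miR390a and miR390b. In Arabidopsis miR390 loads AGO7 and starts the production of trans-acting siRNAs that restrain auxin response factors, a pathway known for its part in lateral root growth. For miR390a, LR-CT replicates gave 3879, 7068 and 7181 counts and LR-DS replicates 951, 809 and 296, against 1573, 972 and 145 for TR-CT and 311, 754 and 600 for TR-DS. In lateral roots it fell under drought, with a log2FC of -1.27 (SE 0.43, FDR = 0.0318 in edgeR's quasi-likelihood test) and no overlap, while miR390b had -0.38 (SE 0.47, FDR = 0.559) and overlapped. Of these 2, therefore, 1 was lower and 0 were higher in LR-DS, where 22.7% of all miRNAs were called lower. Neither passed in taproots (log2FC of 0.40 and -0.14, FDR = 0.997 each in edgeR) or between root types in control (1.41 with FDR = 0.445, and -0.46 with FDR = 0.737).

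The miRNAs whose scaled levels over the 12 libraries ran most like those of each member were found among the 61 with at least 10 counts on average. For miR162a these were miR167b (Pearson r = 0.96), miR166c (0.92) and miR393a (0.89), whose families target auxin response factors, HD-ZIP III transcription factors and auxin receptors in Arabidopsis. miR168a ran most like miR159a (0.83), miR396b (0.79) and miR164d (0.76), whose families target MYB, growth-regulating and NAC transcription factors there. For miR403a the values were lower, 0.72 for miR160b, 0.54 for miR171b and 0.52 for a miRNA named by its sequence only. Between the members themselves r was 0.35 for miR162a and miR168a, 0.39 for miR162a and miR403a, and 0.25 for miR168a and miR403a. As deviations from the group means, r was 0.92, 0.35 and 0.39 for the same pairs. The 0.92 does not show that miR162a and miR168a moved by similar amounts. Their log2 ratio, which needs no scaling, varied widely between taproot replicates, with an SD of 1.53 (TR-CT) and 1.14 (TR-DS). For lateral roots this SD was 0.54 (LR-DS) and 0.089 (LR-CT). Nor was 0.92 particular to this pair, since miR162a had 0.97 with miR166e and 0.96 with miR396c as such deviations. These correlations describe 12 libraries that share scaling factors and fall into 4 groups, and no p is given for them.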

How the data were processed

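Counts were deposited by the authors as whole reads per mature miRNA, without normalization. Per the labels and methods, reads of 50 bp were trimmed with Cutadapt (minimum 15 nt), checked with FastQC, and mapped and quantified with ShortStack, which uses Bowtie, against miRBase sequences; versions and a genome build for the miRNA step are not given in the sources used here. Groups and replicate numbers were taken from titles and library names. The labels of LR-DS replicates 2 and 3 cite the same column, and the remaining LR-DS column was given to replicate 3 by its library name. Tests used edgeR 4.0.16 in R 4.3.3: miRNAs with any count in a comparison (minimum 1), TMM factors, the quasi-likelihood F test for each pair of groups or, for the interaction, all 12 libraries, and Benjamini-Hochberg adjustment (FDR) over all miRNAs tested, threshold 0.05. The SE of a log2FC is its size over the square root of F, and log2 CPM used a prior count of 2. Groups overlap unless every library of one lies above every library of the other. log2 ratios (pseudocount 0.5) were tested in Python 3.11.15 by exact permutation within strata. Replicates differed by more than sampling noise (chi-square over its degrees of freedom 25.2 or more), so none was merged. The test was checked on simulated data. The alternatives were other scalings, DESeq2 1.42.0, other filters and thresholds, the replicate number as a block, 1 joint fit, other pseudocounts, summed counts and leaving out each library. The miRNAs named were the 3 members, miR390a and miR390b as other miRNAs of small RNA pathways, and the 3 miRNAs most like each member. Members, lists and tests were chosen with earlier results of these data known. Intervals and floors cover counting error only. Sites were aligned to the miRNA with affine gap costs. The sequence of miR162 and its sites came from the study's degradome table, and no other value of that table was used.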

Additional observations from a re-analysis of the deposited data

How the results depend on the processing

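Of the ratio tests, both drought differences in the ratios to miR168a stayed past an exact p of 0.05 with pseudocounts of 1 and 0. The labels do not say whether replicate numbers pair the samples. Same-numbered libraries correlated between -0.30 and 0.68 as deviations from group means, which cannot exclude pairing. With the numbers as a replicate block, both of these ratio differences had an exact sign-flip p of 0.03125. In that block fit the miR162a log2FC in lateral roots was 1.60 (FDR = 0.0877 in edgeR, call lost), that of miR403a was -0.0061, and 2 miRNAs passed in taproots. The miR162a call in lateral roots was also lost with library size alone (0.52) and in the joint fit (1.73), where 0 instead of 24 miRNAs passed. miR168a there passed with library size alone (-2.19) and at a threshold of 0.1 (-1.02). Of those calls, 7 of 24 were higher, against 2 of 35 with library size alone, 14 of 23 without the 16 nt sequence in the library size, 8 of 23 with RLE factors and 14 of 35 by DESeq2. Where the main count was 0, alternatives called at most 2 miRNAs in taproots, 4 between root types in control, 1 in the interaction and, with a library left out, 2 between root types under drought. Signs also turned. For miR168a this was so in taproot drought with RLE factors (0.14), DESeq2 (0.14) and at least 10 counts per library (0.042), in control root type with filterByExpr (-0.046) and the joint fit (-0.15), and without the 16 nt sequence in drought root type (0.029) and the interaction (0.0099). For miR403a it was so in lateral root drought with library size alone (-0.95), in control root type with RLE factors (-0.025), DESeq2 (-0.024), filterByExpr (-0.059) and the joint fit (-0.20), and without the 16 nt sequence in drought root type (0.15) and the interaction (0.13). The miR162a interaction was -0.19 with library size alone, and the root type difference in miR403a to miR168a was -0.11 from summed counts.

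With 1 library left out, ranges were -1.37 to -0.61 for root type in miR162a to miR168a, -1.52 to -0.58 in miR162a to miR403a and -0.31 to 0.27 in miR403a to miR168a, and 0.65 to 1.23 for drought in miR403a to miR168a. The log2FC of miR168a ran from -1.21 to -0.52 for drought in lateral roots, -0.71 to 0.20 in taproots and -0.85 to 0.051 in the interaction. That of miR403a ran from -0.23 to 0.62 for drought in lateral roots, -0.76 to 0.37 for root type under drought and -1.07 to 0.36 in the interaction, and the miR162a interaction from -0.78 to 2.08. In control root type it ran from 0.13 to 0.42 for miR168a and 0.049 to 0.47 for miR403a, and under drought from -0.67 to -0.033 for miR168a. The 24 calls in lateral roots became 14 without LR-CT replicate 2 and 15 without LR-CT replicate 3. The causes were not tested. Depth limits LR-DS replicate 3, with 97 counts of miR168a.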
